A study of Mus musculus with 48 samples.

Results

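Glucose enters a cell through a transporter and is then broken down to pyruvate by a fixed series of enzymes. Transcripts of 10 genes of this route were followed through 48 mouse lungs: Slc2a1, which codes for the glucose transporter GLUT1; the hexokinases Hk1 and Hk2; the isomerase Gpi1; the phosphofructokinases Pfkl and Pfkp and their regulator Pfkfb3; the aldolase Aldoa; the pyruvate kinase Pkm; and the lactate dehydrogenase Ldha. The rule picks the genes by name and uses no measured value, though the list was drawn up with earlier results of these data known. All 10 were found among the 47561 gene rows of the deposited expression matrix.

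Adult male and female mice of the strains C3H/hen (C3H) and C57Bl/6 (C57B) received 1 intraperitoneal injection of saline or of aurothioglucose (ATG) at 25 mg/kg and were then kept in room air (RA) or in hyperoxia (HYP), oxygen above 95%, for 96 h. ATG is a gold compound that inhibits thioredoxin reductase, an enzyme of antioxidant defence. Strain, sex, injection and air gave 16 groups of 3 mice, and whole lung tissue from each mouse was sequenced as 1 library. The mice are inbred and carry no transgene; saline mice in room air are the controls for both ATG and hyperoxia, and every hyperoxia mouse had also been injected. A series-level note has ATG given to all mice, whereas the sample labels name saline for 24 of them; the sample labels were followed. The sources also name different C57B substrains, so the strain is given here only as labelled.

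Expression is given in FPKM, fragments scaled to transcript length and to the number of mapped fragments in the library. Totals of FPKM per lung ran from 510933 to 748290. Read totals were not analysed here, but the size of the smallest steps between low values placed the libraries at 0.771 to 1.24 times the depth of their median, with 27.7% to 35.5% of the low values compared lying on such steps, so this is a rough guide. The strain labels could be checked: H2-Ea-ps, a gene that C57B mice do not express normally, was at 100 FPKM or more in every C3H lung and at 2.28 FPKM or less in every C57B lung. The sex labels could not, because all 2609 X, 1570 Y and 37 mitochondrial genes of the matrix are listed at 0 in every lung. Markers of alveolar type 2 cells (5 of 5, led by Sftpc), alveolar type 1 cells (5 of 5, led by Ager), club cells (3 of 3, led by Scgb1a1) and endothelial cells (5 of 5, led by Cldn5) were above 0 in all 48 libraries.

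A few libraries stood apart. Pearson correlations of log2(FPKM + 1) were 0.933 to 0.979 within groups (48 pairs) and 0.817 to 0.976 between groups (1080 pairs), and no pair of libraries was identical. The lowest mean correlations with the own group were those of C3HM SAL RA 2 (0.943) and 1 (0.945), C57BM SAL HYP 19 (0.946) and C3HF SAL HYP 33 (0.948), where each mouse is named by strain, sex, injection, air and its number. An earlier principal component analysis had set C3HM SAL RA 1 and 3 apart. Results below that rest on C3HM SAL RA 1 and 3 or on C57BM SAL HYP 19 and C3HF SAL HYP 33 are therefore also given without them. Leaving out C3HM SAL RA 1 and 3 leaves that group only C3HM SAL RA 2, itself the lowest in correlation. Single results for that setting are given as the size of the change only.

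Glycolysis traps glucose in the cell by phosphorylation at the hexokinase step, commits it at the phosphofructokinase step, splits the sugar at the aldolase step and yields ATP and pyruvate at the pyruvate kinase step. Lactate dehydrogenase then turns pyruvate into lactate and restores the NAD that the route needs, while part of the phosphorylated glucose can leave for the pentose phosphate pathway, which supplies NADPH. Pfkfb3 codes for the enzyme that makes the strongest known activator of phosphofructokinase. Hypoxia-inducible factors (HIF) and Myc are textbook activators of many of these genes, and neutrophils are known to depend on glycolysis for their energy.

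On the GRCm38 build Slc2a1 lies at chr4:119108711-119137983 on the plus strand, Pkm at chr9:59656368-59679375 on the plus strand and Ldha at chr7:46841475-46855627 on the plus strand. Minus-strand genes are Hk1 at chr10:62268855-62379908, Hk2 at chr6:82725025-82774454, Gpi1 at chr7:34201330-34230336, Pfkl at chr10:77986947-78010083, Pfkp at chr13:6579768-6648777, Pfkfb3 at chr2:11471433-11554077 and Aldoa at chr7:126795234-126800751. All 10 are annotated as protein-coding. Transcript sequence shared with other genes could blur some of the values, because reads from shared stretches can be given to either copy. The share of 30-base words of the exons found elsewhere among annotated exons was 35.3% for Pkm, 20.1% for Ldha, 17.7% for Aldoa and 14.4% for Gpi1, against 0% for Slc2a1 and Hk1 and less than 1% for Hk2, Pfkl, Pfkp and Pfkfb3. Among the members with shared sequence only the pseudogene Gm1840, which matches Gpi1, was itself at a level close to that of its relative, with a median of 49 FPKM in saline mice in room air; the Gpi1 values are uncertain for that reason.

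Promoter stretches of 5 genes are shown because the members later fell into those that were higher in hyperoxia and those that were not: Slc2a1, Hk2, Pfkfb3 and Ldha from the first set and Pfkp from the second. Not shown are Hk1, Aldoa and Pkm of the first set and Gpi1 and Pfkl of the second. Each stretch lies before a RefSeq transcript start, is trimmed where an annotated exon begins, and is read 5′ to 3′ on the gene's own strand, from the RefSeq promoter table on GRCm38.p6. Capitals mark ACGTG, the core of the HIF binding motif, on either strand, with CACGTG, the E-box to which Myc can bind, also capitalised since it holds ACGTG. For Slc2a1 the stretch is chr4:119108495-119108710 (plus), for Hk2 chr6:82774455-82774704 (minus), for Pfkfb3 chr2:11502102-11502340 (minus), for Ldha chr7:46845554-46845803 (plus) and for Pfkp chr13:6648778-6649021 (minus).
The Pfkfb3 and Ldha stretches belong to internal starts, inside the annotated genes.
Slc2a1: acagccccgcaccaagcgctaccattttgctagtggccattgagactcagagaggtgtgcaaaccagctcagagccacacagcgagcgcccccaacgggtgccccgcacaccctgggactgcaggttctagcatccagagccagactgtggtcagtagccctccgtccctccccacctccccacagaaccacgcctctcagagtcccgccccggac
Hk2: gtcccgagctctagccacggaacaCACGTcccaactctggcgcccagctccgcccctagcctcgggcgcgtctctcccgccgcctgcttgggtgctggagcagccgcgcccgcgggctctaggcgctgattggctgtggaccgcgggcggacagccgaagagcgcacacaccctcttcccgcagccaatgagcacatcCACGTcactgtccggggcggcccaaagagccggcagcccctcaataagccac
Pfkfb3: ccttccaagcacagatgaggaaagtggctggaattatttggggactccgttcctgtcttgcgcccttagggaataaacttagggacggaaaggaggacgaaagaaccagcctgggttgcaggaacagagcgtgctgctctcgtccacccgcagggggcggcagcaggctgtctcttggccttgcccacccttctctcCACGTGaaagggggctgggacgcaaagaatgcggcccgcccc
Ldha: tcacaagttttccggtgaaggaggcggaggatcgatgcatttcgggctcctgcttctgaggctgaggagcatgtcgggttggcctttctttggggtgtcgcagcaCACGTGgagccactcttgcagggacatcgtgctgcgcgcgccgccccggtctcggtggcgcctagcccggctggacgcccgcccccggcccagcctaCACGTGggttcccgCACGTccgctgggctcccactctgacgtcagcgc
Pfkp: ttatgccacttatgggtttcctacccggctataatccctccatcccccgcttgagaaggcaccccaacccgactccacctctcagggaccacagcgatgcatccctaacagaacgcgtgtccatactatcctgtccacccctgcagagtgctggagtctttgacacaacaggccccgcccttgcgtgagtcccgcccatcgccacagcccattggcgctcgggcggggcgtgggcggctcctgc
The Ldha stretch holds 3 separate matches to ACGTG, the Hk2 stretch 2 and the Pfkfb3 stretch 1. The single match of Slc2a1 overlaps the annotated start of its exon and so lies outside the printed stretch, and Pfkp has no ACGTG. The Pfkp stretch does hold 3 matches to GCGTG, another form of the HIF core, which is not capitalised here. Pfkfb3 and Ldha each have a second RefSeq start that is not shown: the 102 bases before the exon at the second Pfkfb3 start (chr2:11554078-11554179) hold no ACGTG, with 1 match in its full window, and the second Ldha window (chr7:46846832-46847081) holds none.

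In full windows of 250 bases before each RefSeq start, searched on both strands with overlapping matches merged, ACGTG was found for 6 of the 10 genes (Slc2a1, Hk2, Pfkfb3, Aldoa, Pkm and Ldha) and in 18.5% of the 27025 genes with a window. Hk1, Gpi1, Pfkl and Pfkp had no ACGTG in these windows, although Hk1 was among the genes higher in hyperoxia. GCGTG was found for 6 of 10 genes (Slc2a1, Hk1, Pfkl, Pfkp, Pfkfb3 and Ldha) and in 30.9% of all genes. CACGTG was found for 2 of 10 (Pfkfb3 and Ldha) and in 6.86%, and GGGCGG, the Sp1 box, for 8 of 10 and in 35.4%. A gene with several starts has several windows, and the 10 genes have 16 between them, of which 8 held ACGTG against 16.6% of all 32851 windows. Such matches describe the letters of the sequence only, not binding.

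Among the 10 genes Aldoa, Ldha and Pkm were the most abundant in room air. Per length, in the 12 saline mice in room air, median levels were 322 FPKM for Aldoa, 209 for Ldha, 144 for Pkm, 60.7 for Gpi1, 19.9 for Pfkp, 18.1 for Hk1, 14.7 for Pfkl, 10.7 for both Pfkfb3 and Slc2a1, and 3.73 for Hk2. Aldoa was above Ldha, Ldha above Pkm, Gpi1 above Pfkp and Slc2a1 above Hk2 in 12 of 12 mice, and Pkm above Gpi1 and Hk1 above Pfkl in 11 of 12. Neighbours in the lower part of the order did not separate, since Pfkp exceeded Hk1, Pfkl exceeded Pfkfb3 and Pfkfb3 exceeded Slc2a1 in only 8 of 12 mice each. Together the 10 genes summed to 682 to 928 FPKM per lung (median 823).

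**Figure D1:**
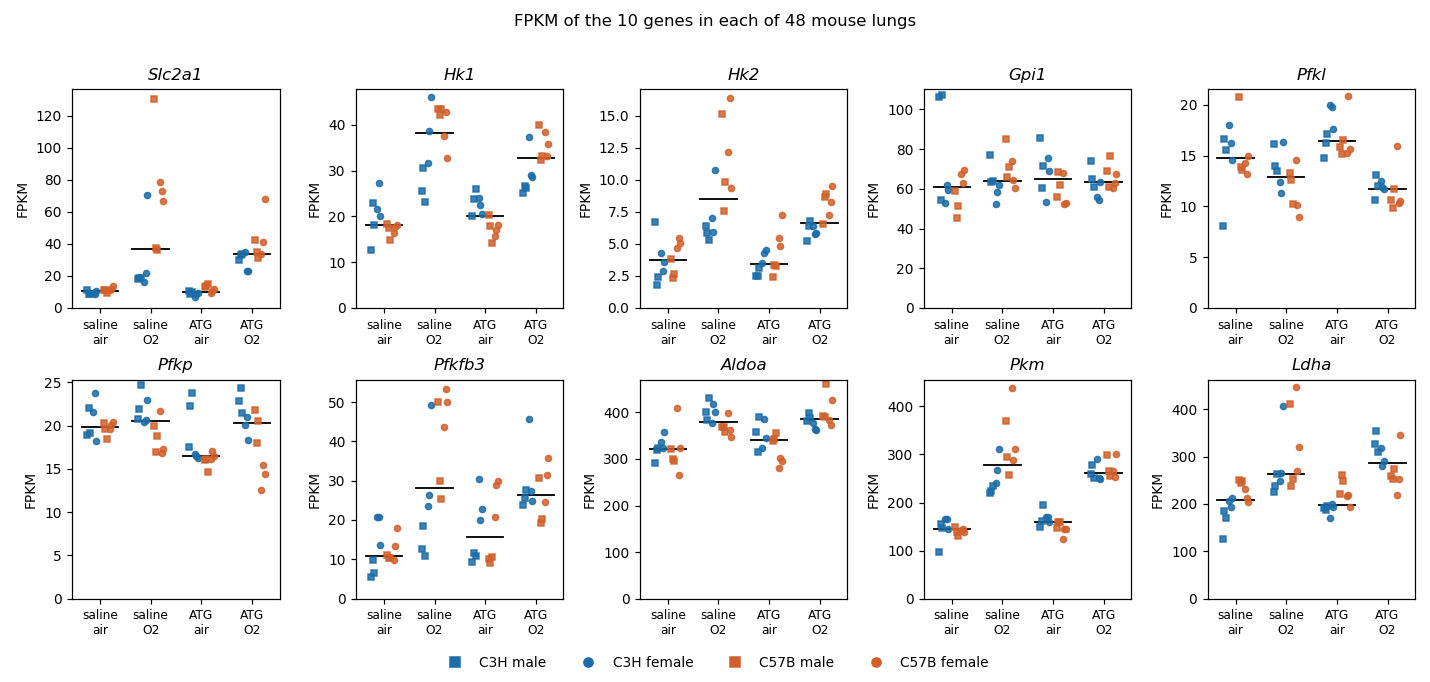
FPKM (linear axis from 0) of the 10 genes in each of 48 lungs, by injection and air; blue marks C3H, orange C57B, squares males, circles females, and the horizontal line is the median of the 12 mice. For Slc2a1 and Pkm no hyperoxia mouse overlaps a room air mouse after either injection, whereas for Gpi1 and Pfkp the hyperoxia and room air mice overlap, with the lowest Pfkp median (16.5) in ATG mice in room air.

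The first comparison asks how 96 h of hyperoxia changed these transcripts in saline mice. In the limma fit, with a Benjamini-Hochberg adjusted p under 0.05 over all 16321 genes tested, 7 of the 10 genes increased (Slc2a1, Hk1, Hk2, Pfkfb3, Aldoa, Pkm and Ldha) and none decreased. Hyperoxia moved much of the transcriptome: 60.1% of all genes tested passed the same threshold, and 31.8% were higher in hyperoxia. The median log2 fold change, on the log2(FPKM + 1) scale used throughout, was 0.71 for the 10 genes and 0.01 for all genes tested. The sum of the 10 genes increased from a median of 823 to 1124 FPKM.

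The transporter gene Slc2a1 had the largest log2 fold change of the 10. Slc2a1 was at 8.63 to 13.6 FPKM (median 10.7) in the 12 saline mice in room air and at 16.1 to 131 (median 37.0) in the 12 in hyperoxia. Every hyperoxia mouse was above every room air mouse, a pattern shared by 5.61% of all genes tested, and the hyperoxia values themselves spread widely. The log2 fold change was 1.81 (SE 0.20), a 3.50-fold increase, with an adjusted p of 2.27e-07. Without C57BM SAL HYP 19 and C3HF SAL HYP 33, which had 131 and 70.3 FPKM, it was 1.5 with an adjusted p of 5.01e-12, a choice made after seeing the data.

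At the hexokinase step both genes increased. Hk1, the form found in most tissues, went from 12.7 to 27.3 FPKM (median 18.1) in room air to 23.0 to 46.1 (median 38.1) in hyperoxia. Its log2 fold change was 0.91 (SE 0.09, adjusted p = 3.31e-08), and 10 of the 12 hyperoxia mice lay above all room air mice. Hk2, the inducible form, went from 1.82 to 6.72 FPKM (median 3.73) to 5.28 to 16.3 (median 8.46), a log2 fold change of 1.08 (SE 0.15, adjusted p = 4.79e-06). One room air mouse, C3HM SAL RA 1, had 6.72 FPKM, above 4 of the hyperoxia mice, and 8 of 12 hyperoxia mice were above all in room air. The ratio of Hk2 to Hk1 within a mouse, given as a description, had a median of 0.189 in room air and 0.232 in hyperoxia (0.0798 to 0.528 and 0.153 to 0.382). The 0.528 is that of C3HM SAL RA 1, and without it the room air ratios reached 0.310 and 3 of 12 hyperoxia mice were above all of them.

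The isomerase and the phosphofructokinases did not pass the threshold in the FPKM as deposited, but Pfkl passed as lower after quantile normalization (-0.31, adjusted p = 0.0157) and median ratio scaling (-0.26, adjusted p = 0.041), where Gpi1 had -0.13 and -0.02 without passing. Gpi1 was at 45.2 to 107 FPKM (median 60.7) in room air and 52.3 to 85.1 (median 64.2) in hyperoxia, a log2 fold change of 0.04 (SE 0.09, adjusted p = 0.74). Both of its highest values, 106 and 107 FPKM, came from C3HM SAL RA 1 and 3, and without this pair its log2 fold change was 0.20. Pfkl, the liver-type subunit, was at 8.04 to 20.7 FPKM (median 14.7) and 8.94 to 16.4 (median 12.9), a log2 fold change of -0.20 (SE 0.11, adjusted p = 0.121). Without C3HM SAL RA 1 alone that value was -0.28 (adjusted p = 0.0134), and without the pair it was -0.29. Pfkp, the platelet-type subunit, was at 18.2 to 23.8 FPKM (median 19.9) in room air and 16.8 to 24.7 (median 20.5) in hyperoxia. Its log2 fold change of -0.00 (95% interval -0.13 to 0.13, adjusted p = 0.997) was the smallest of the 10.

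Pfkfb3, which acts on this step from outside, increased. It was at 5.47 to 20.8 FPKM (median 10.7) in room air and 10.9 to 53.3 (median 28.2) in hyperoxia, a log2 fold change of 1.25 (SE 0.14, adjusted p = 3.23e-07). In 9 of 12 hyperoxia mice the level was above that of all room air mice, and the 3 others were C3H males.

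From the aldolase step onward all 3 members increased, by unequal amounts. Pkm went from 96.8 to 166 FPKM (median 144) in room air to 219 to 439 (median 278) in hyperoxia, without overlap, for a log2 fold change of 0.98 (SE 0.09, adjusted p = 7.48e-09). Ldha went from 125 to 251 FPKM (median 209) to 225 to 447 (median 264), a log2 fold change of 0.51 (SE 0.10, adjusted p = 0.000311), with 8 of 12 hyperoxia mice above all in room air. Aldoa, the most abundant member, went from 265 to 409 FPKM (median 322) to 348 to 431 (median 380). Its log2 fold change was 0.26 (SE 0.06, adjusted p = 0.000889), and after quantile normalization it was 0.04 and no longer passed (adjusted p = 0.555). The ratio of Ldha to Ldhb, the gene of the other lactate dehydrogenase subunit, had a median of 1.53 (0.467 to 2.80) in room air and 3.10 (1.73 to 8.45) in hyperoxia, and was above all room air mice in 7 of 12 hyperoxia mice. Ldhb shares 33.8% of its 30-base words with Gm5514, which was at a median of 38.5 FPKM in room air, so the Ldhb values are uncertain. The pseudogenes closest to Pkm and Aldoa, Gm6560 and Aldoart1, had medians of 11.4 and 11.0 FPKM in room air and 23.4 and 15.2 FPKM in hyperoxia, small beside their relatives.

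The same question was put to a separate set of 24 mice, those injected with ATG. Here 8 of 10 genes passed, 7 higher and 1 lower in hyperoxia, beside 61.8% of the 16206 genes tested, 35.8% higher and 26% lower. The 7 higher genes were those named for saline mice, and the lower one was Pfkl. The median log2 fold change was 0.57 for the 10 genes and 0.06 for all genes tested.

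**Figure D2:**
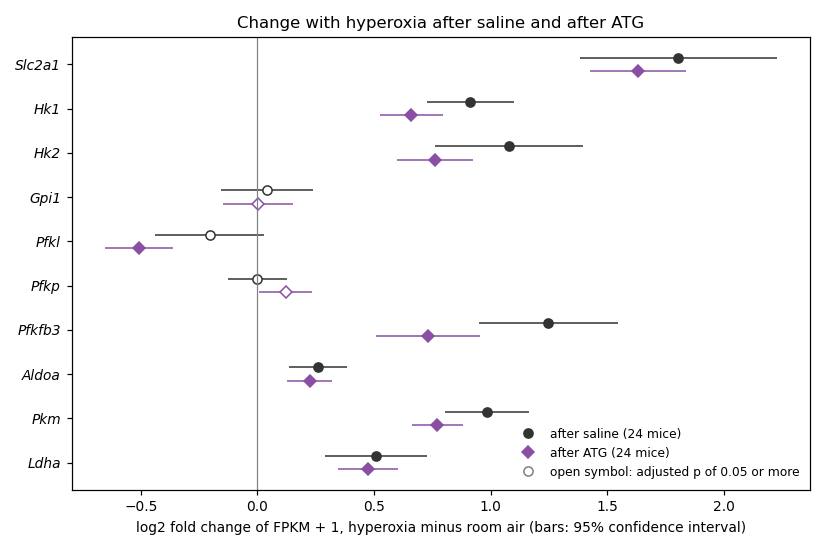
Log2 fold change of FPKM + 1, hyperoxia minus room air, for the 10 genes in 24 saline mice (circles) and in 24 ATG mice (diamonds), with 95% confidence intervals from the limma fits; open symbols mark an adjusted p of 0.05 or more. Slc2a1 has the largest change in both sets (1.81 and 1.63), Gpi1 and Pfkp sit at or near 0, and Pfkl lies below 0 in the ATG mice.

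Slc2a1 again had the largest change. It was at 6.80 to 14.8 FPKM (median 10.2) in the 12 ATG mice in room air and 23.2 to 68.1 (median 33.5) in the 12 in hyperoxia, a log2 fold change of 1.63 (SE 0.10, adjusted p = 1.78e-11). The groups did not overlap, as for 8.82% of all genes tested, and the highest hyperoxia value was lower than the 131 FPKM reached after saline. Hk1 went from a median of 20.1 to 32.7 FPKM (log2 fold change 0.66, SE 0.06, adjusted p = 2.4e-08) with 11 of 12 hyperoxia mice above all in room air. Hk2 went from a median of 3.39 to 6.65 FPKM, 5.25 to 9.52 in hyperoxia, and 5 of 12 mice were above all in room air (log2 fold change 0.76, SE 0.08, adjusted p = 4.23e-08).

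Pfkl was the member that moved down. Its level in ATG mice was 14.8 to 20.9 FPKM (median 16.4) in room air and 9.87 to 15.9 (median 11.7) in hyperoxia, a log2 fold change of -0.51 (SE 0.07, adjusted p = 2.61e-06), and 11 of 12 hyperoxia mice were below all in room air. Pfkp was at 14.6 to 23.8 FPKM (median 16.5) in room air and 12.5 to 24.4 (median 20.3) in hyperoxia, with a log2 fold change of 0.12 (SE 0.05) whose adjusted p was 0.0589; it passed when any of C3HM ATG RA 6, C57BM ATG HYP 23, C3HF ATG HYP 36 or C57BF ATG HYP 46 was left out (0.0286 to 0.0461). The ratio of Pfkp to Pfkl accordingly had a median of 1.03 (0.816 to 1.38) in room air and 1.75 (0.785 to 2.16) in hyperoxia, and in 10 of 12 hyperoxia mice it was above all room air mice. After saline the corresponding medians were 1.36 and 1.61 and no hyperoxia mouse was above all in room air. That count rests on C3HM SAL RA 1, with a ratio of 2.36; without it the highest room air ratio was 1.52 and 7 of 12 hyperoxia mice were above all, a choice made after seeing the data. Gpi1 had a log2 fold change of 0.00 (SE 0.07, adjusted p = 0.987), which turned to -0.20 with an adjusted p of 0.0137 after quantile normalization.

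Pfkfb3 went from 9.14 to 30.5 FPKM (median 15.7) to 19.3 to 45.7 (median 26.5) in the ATG mice, a log2 fold change of 0.73 (SE 0.11, adjusted p = 5.16e-06), and here only 4 of 12 hyperoxia mice were above all in room air. Pkm went from 124 to 195 FPKM (median 159) to 248 to 301 (median 262), without overlap (log2 fold change 0.77, SE 0.05, adjusted p = 7.64e-11). Ldha went from 171 to 260 FPKM (median 198) to 219 to 355 (median 286), a log2 fold change of 0.47 (SE 0.06, adjusted p = 9.79e-07). Aldoa went from 281 to 389 FPKM (median 341) to 363 to 461 (median 386), a log2 fold change of 0.22 (SE 0.05, adjusted p = 0.000242) that was -0.01 with an adjusted p of 0.877 after quantile normalization.

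The rest of the pathway was read from lists chosen with earlier results of these data known, so the counts describe rather than test. Over all genes tested, 31.8% were higher and 4611 of 16321 lower after saline. After ATG 35.8% were higher and 26% lower. These shares stand beside every hyperoxia count of the lists and markers below. Among the other glycolytic enzymes 14 of 17 could be tested in saline mice, of which 7 were higher and 4 lower in hyperoxia (median 0.28 against 0.01 for all genes). Pgk1, which lies on the X chromosome, is listed at 0 throughout. Eno1, the common enolase, and Pgam1, the common phosphoglycerate mutase, were higher with log2 fold changes of 0.95 (SE 0.10, adjusted p = 8.8e-08) and 0.93 (SE 0.13, adjusted p = 5.09e-06), though 28.7% and 37.2% of their 30-base words are shared with other genes. Gapdh was higher too (0.91, adjusted p = 4.78e-05), but at a median of only 2.53 FPKM in room air, and its values are uncertain. The pseudogene Gm13394, which shares 21.4% of the 30-base words of Gapdh, had a median of 11.9 FPKM over both strains. By strain, Gapdh had medians of 1.28 FPKM in C3H and 3.80 in C57B, and Gm13394 had 52.3 in C3H. In C57B the most abundant gene sharing sequence with Gapdh was Peli2, at 3.73 FPKM. Tpi1, the triose phosphate isomerase, had a log2 fold change of 0.07 (SE 0.10, adjusted p = 0.548). Lower in hyperoxia were the muscle forms Eno3 (-1.83), Pgam2 (-1.48) and Pfkm (-0.85), and Ldhb (-0.67). After ATG 5 of 14 were higher and 4 lower (median 0.11 against 0.06), with Eno1 at 0.89, Gapdh at 0.88, Pgam1 at 0.61, Pfkm at -1.0, Pgam2 at -1.29 and Eno3 at -1.41, while Tpi1 was at 0.02 (adjusted p = 0.745).

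Among 12 tested of 14 other sugar transporters and regulators of uptake, 2 were higher and 4 lower in saline mice (median -0.18). In the same fit 60.1% of all genes were called. Txnip, which codes for a protein that removes glucose transporters from the cell surface, went from 249 to 747 FPKM (median 293) to 136 to 258 (median 162), a log2 fold change of -0.89 (SE 0.13, adjusted p = 1.03e-05). Slc2a3, the gene of the high-affinity transporter GLUT3, was higher (0.82) at medians of 2.77 and 5.65 FPKM, below those of Slc2a1, and so was the urate transporter gene Slc2a9 (0.72). Slc2a13 (-0.48), Slc2a12 (-0.42) and Slc2a8 (-0.28) were lower. After ATG 3 were higher and 5 lower (median -0.16), with Txnip at -1.03, Slc2a9 at 0.74 and Slc2a3 at 0.42.

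The list around the phosphofructokinase step and gluconeogenesis, 8 tested of 10, held 3 higher and 1 lower gene after saline (median 0.05) and 4 higher and 1 lower after ATG (median 0.23). Tigar, which codes for a phosphatase that opposes Pfkfb3, was higher with log2 fold changes of 0.39 and 0.48. Fbp2, a muscle-type fructose bisphosphatase, had 0.49 and 0.79, with hyperoxia medians of 5.45 and 7.40 FPKM in C3H and 0.965 and 1.16 in C57B, and Pck2, the mitochondrial phosphoenolpyruvate carboxykinase, 0.27 and 0.33. Pck1 was at medians of 0.598 FPKM or less in each set of 12 mice and had -0.48 after saline. G6pc is listed at 0 in every lung.

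For lactate and pyruvate 14 of 16 genes could be tested, with 7 higher and 3 lower after saline (median 0.29) and also 7 and 3 after ATG (median 0.24). Pdha1 and Pdk3, which lie on the X chromosome, are listed at 0 throughout. Slc16a1, the lactate transporter MCT1, went from a median of 13.3 to 25.3 FPKM in saline mice (log2 fold change 0.95, SE 0.12, adjusted p = 6.52e-07) and had 1.16 after ATG. The pyruvate dehydrogenase kinases, which switch pyruvate dehydrogenase off, moved in opposite directions: Pdk4 was higher (1.58 after saline and 0.97 after ATG), and Pdk2 was lower (-1.41 and -1.20). Mpc2 (-0.32) and Pdp1 (-0.28) were the other lower genes after saline. Pcx, pyruvate carboxylase, had 0.88 and 1.0, and Dld, a dehydrogenase subunit, 0.49 and 0.72. In the pentose phosphate pathway 5 of 7 tested genes were higher and 1 was lower after saline (median 0.35), and 4 and 0 after ATG (median 0.27). G6pdx of the same pathway, which lies on the X chromosome, is listed at 0 in every lung and so was not covered. Of all genes tested, 31.8% were higher after saline and 35.8% after ATG. Pgd, which makes NADPH, went from a median of 55.8 to 150 FPKM after saline (log2 fold change 1.34, SE 0.07, adjusted p = 1.25e-11) and had 1.27 after ATG, and Taldo1, transaldolase, went from 144 to 306 FPKM (1.12, SE 0.05, adjusted p = 1.57e-12) and had 1.23 after ATG. H6pd (0.49), Tkt (0.35) and Pgls (0.31) were the other higher genes after saline and Rpe (-0.27) the lower one.

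Among transcription factors known to act on glycolytic genes, Myc and Hif1a changed more than any of the 10 genes. Myc went from 2.05 to 7.19 FPKM (median 4.42) to 13.4 to 88.3 (median 34.0) after saline, without overlap, a log2 fold change of 2.78 (SE 0.17, adjusted p = 5.36e-11), and had 2.64 after ATG. Hif1a went from 11.8 to 24.4 FPKM (median 17.8) to 29.0 to 165 (median 81.7), also without overlap (2.06, SE 0.14, adjusted p = 1.97e-10), and had 1.98 after ATG. Epas1, which codes for the related factor HIF-2 alpha of endothelium, was lower with -0.68 and -1.23, at medians of 405 FPKM in room air and 232 FPKM in hyperoxia after saline. In all 3 of 5 tested factors were higher and 1 lower after saline (median 0.34), and 3 of 6 higher and 2 lower after ATG (median -0.05). HIF acts largely through protein that these data do not measure.

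**Figure D3:**
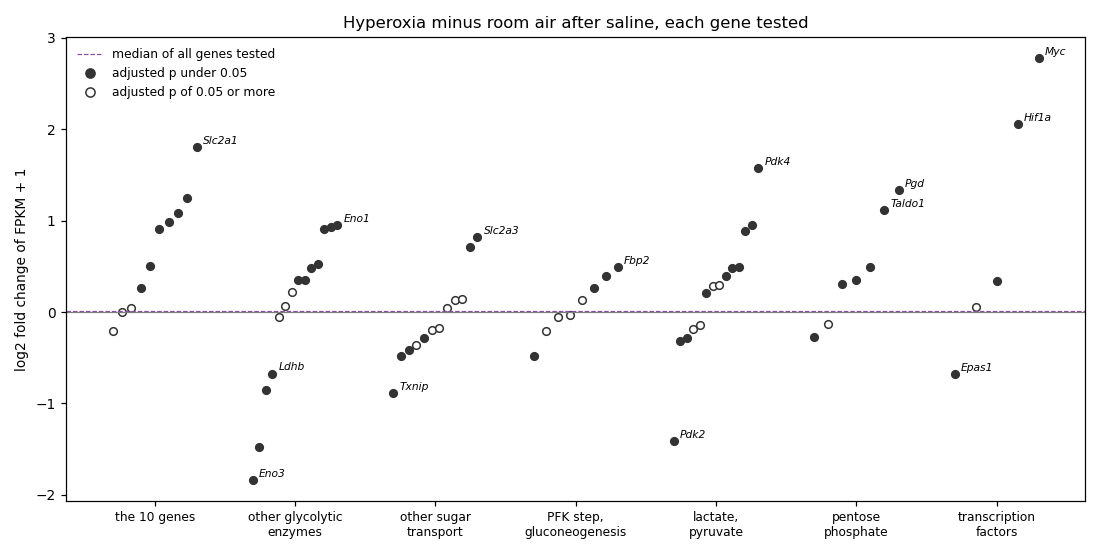
Log2 fold change of FPKM + 1, hyperoxia minus room air in 24 saline mice, for every tested gene of the 10 and of 6 lists of the wider pathway, ordered within each list; filled points have an adjusted p under 0.05 and the dashed line is the median of all genes tested (0.01). The 10 genes lie mostly above the line, while the other lists spread to both sides, from Eno3 at -1.83 to Myc at 2.78.

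Cell type markers moved with these changes, and because the tissue was bulk, fewer cells of a type and less RNA per cell cannot be told apart. Neutrophil markers were higher in hyperoxia after saline for 6 of 6 genes and after ATG for 4 of 6, and none was at 0 in all mice. Their summed level was 135 to 775 FPKM (median 274) in saline room air mice and 161 to 6271 (median 879) in saline hyperoxia mice, and S100a9 was the most abundant. Markers of recruited monocytes or macrophages were higher for 3 of 5 genes after saline and 4 of 5 after ATG, with sums of median 179 and 516 FPKM after saline. Cardiac muscle markers were lower for 5 of 6 genes (median sum 170 to 13.3 FPKM after saline) and skeletal muscle markers for 3 of 6 tested (22.5 to 6.50 FPKM), alongside the muscle enzymes Eno3, Pgam2 and Pfkm. Single room air lungs stood out here: C57BF SAL RA 37 had a skeletal muscle sum of 1119 FPKM, with 56.2 FPKM of Eno3, 19.4 of Pfkm and the highest room air Aldoa value of 409, and C3HF SAL RA 27 had a skeletal sum of 139.7 and a cardiac sum of 938 FPKM, with 57.3 of Eno3 and 67.1 of Pgam2. Erythroid markers were lower for 5 of 5 genes, alveolar type 2 markers for 4 of 5 with 1 higher, and club cell markers for 3 of 3. Alveolar macrophage markers were higher for 4 and lower for 2 of 6 tested genes after saline (median sum 366 to 801 FPKM) and lower for 3 of 6 after ATG. Alveolar type 1 markers were lower for 3 of 5 genes after saline (3248 to 2398 FPKM), and for 3 of 5 with 1 higher after ATG, and proliferating cell markers were lower for 4 of 5 after saline (19.5 to 9.39 FPKM) and 1 of 5 after ATG. Endothelial markers were higher for 1 and lower for 2 of 5 genes after saline and lower for 3 of 5 after ATG. Scgb1a1 alone took a median of 16.2% of all FPKM in saline room air mice and 3.89% in saline hyperoxia mice (18.3% and 4.81% after ATG). The part of these markers in the changes of the 10 genes was not tested.

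Within the 12 saline hyperoxia mice several members followed the neutrophil sum. Pearson's r between the log2 values, as a description over 12 mice that share strain, sex and library, was 0.86 for Ldha, 0.84 for Slc2a1 and Pfkfb3, 0.81 for Pkm, 0.69 for Hk2 and 0.53 for Hk1, but -0.10 for Aldoa and Pfkp. Among the 12 ATG hyperoxia mice it was 0.67 for Pfkfb3, 0.27 for Ldha, 0.16 for Pkm, 0.02 for Slc2a1 and -0.24 for Hk2. C57BM SAL HYP 19, with 131 FPKM of Slc2a1, had a neutrophil sum of 4863 FPKM, whereas C57BM SAL HYP 20 and 21 had 37.6 and 36.4 FPKM of Slc2a1 and sums of 281 and 161. C3HF SAL HYP 33 had 70.3 FPKM of Slc2a1 and a sum of 6271 FPKM, and the 3 C3HM SAL HYP mice had 18.3, 18.7 and 18.4 FPKM and sums of 190, 178 and 222. In C3H saline mice in room air the sums were 135 to 312 FPKM (median 188).

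**Figure D4:**
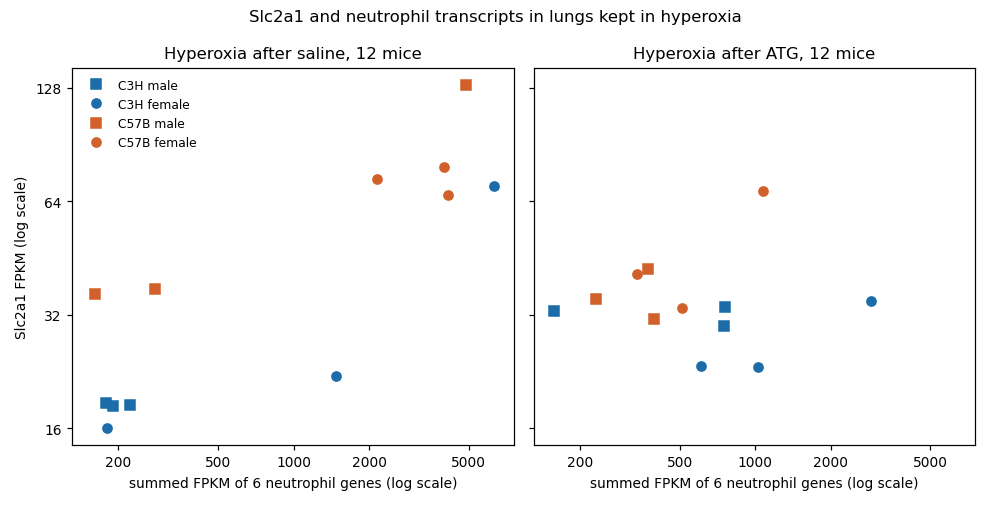
Slc2a1 (FPKM, log axis) against the summed FPKM of 6 neutrophil genes (log axis) in the 12 saline and 12 ATG mice kept in hyperoxia; colours mark strain and shapes sex. After saline the lungs with sums above 2000 FPKM had 66.5 to 131 FPKM of Slc2a1, and after ATG no such order is seen.

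Strain was compared next, first in room air. Among the 12 saline mice in room air 11.8% of 15546 genes tested differed between strains and 7.87% were lower in C3H, and 1 of the 10 genes differed. Ldha was at 125 to 212 FPKM (median 189) in C3H and 205 to 251 (median 238) in C57B, and 4 of 6 C3H mice were below all C57B mice. The log2 fold change, C3H minus C57B, was -0.37 (SE 0.10, adjusted p = 0.0321), and without C3HM SAL RA 1 and 3 it was -0.25. The Ldha call was lost when any 1 of 8 of the 12 mice was left out (adjusted p 0.0555 to 0.0802 in limma), and the median of all genes was itself at -0.10. Gpi1 passed as higher in C3H without C3HM SAL RA 2 (0.42, adjusted p = 0.00546). That fit leaves C3HM SAL RA 1 and 3, at 106 and 107 FPKM of Gpi1 beside 53.0 to 61.8 in the C3HF SAL RA mice. Slc2a1 was at a median of 9.16 FPKM in C3H and 11.3 in C57B (-0.24, SE 0.10, adjusted p = 0.165). In the wider lists Eno1 (-1.58) and Gapdh (-1.12) were lower in C3H, both with shared sequence, as were Hkdc1 (-0.59), Slc2a3 (-0.49), Pgd (-0.42), Pcx (-1.02) and Pfkfb4 (-0.40), and Fbp2 (1.58) and Mpc1 (3.28) were higher. Genes sharing sequence with Eno1 went the other way, with a median sum of 41.3 FPKM in C3H and 12.8 in C57B. Those of Gapdh had 66.5 and 14.8, so the Eno1 and Gapdh strain values are uncertain. Mpc1 shares 12.7% of its 30-base words with the pseudogene Mpc1-ps and is uncertain. No transcription factor of the list passed, and neutrophil markers were lower in C3H for 5 of 6 genes.

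In the 24-mouse fit, whose estimate of the spread is shared by the strains, the same 7 genes were higher in C3H and in C57B after saline, beside 37.8% of all genes called in C3H (25.3% higher) and 55.5% in C57B (25.5% higher). Slc2a1 went from 8.63 to 11.0 FPKM (median 9.16) to 16.1 to 70.3 (median 18.6) in C3H, and from 9.50 to 13.6 (median 11.3) to 36.4 to 131 (median 69.9) in C57B. All C3H hyperoxia mice but C3HF SAL HYP 33 were below all C57B hyperoxia mice. The log2 fold changes were 1.21 (SE 0.29) in C3H and 2.40 (SE 0.29) in C57B. For Pfkfb3 they were 0.81 and 1.68, for Hk1 0.64 and 1.18, for Hk2 0.82 and 1.34, and for Pkm 0.78 and 1.19, whereas Aldoa had 0.30 and 0.21 and Ldha 0.58 and 0.44.

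The test of this difference itself, the strain by hyperoxia term, called 11.5% of all genes and 0 of the 10 in limma. At an unadjusted p under 0.05 were 5 of the 10, beside 4571 of all 16321 genes tested. For Slc2a1 it was -1.18 (SE 0.40, adjusted p = 0.062), for Pfkfb3 -0.87 (SE 0.29, adjusted p = 0.0535), for Hk1 -0.54 (SE 0.18, adjusted p = 0.0542), for Gpi1 -0.42 (SE 0.19, adjusted p = 0.152) and for Pkm -0.41 (SE 0.17, adjusted p = 0.129), where a negative value is a smaller change in C3H. Several of these crossed the threshold under other settings, including the omission of single mice: without C3HF SAL HYP 33 alone Slc2a1 was at -1.49 (adjusted p = 0.00432), and without C3HM SAL RA 2 Gpi1 was at -0.58 (adjusted p = 0.004). The Gpi1 value then rests on C3HM SAL RA 1 and 3, at 106 and 107 FPKM. Without C57BM SAL HYP 19 and C3HF SAL HYP 33 Slc2a1 was at -1.19 with an adjusted p of 3.28e-05, Pfkfb3 at -0.89 (0.0208) and Hk1 at -0.60 (0.0419). Without C3HM SAL RA 1 and 3 Hk1 was at -0.72 and Pfkfb3 at -1.09. Of the wider lists Hif1a had a smaller increase in C3H (-1.36, adjusted p = 0.00445), as had Taldo1 (-0.66), and Epas1 (0.71), Slc5a1 (0.68), Slc5a2 (0.67) and Rpe (0.48) had positive terms. The neutrophil sum in saline hyperoxia mice had a median of 206 FPKM in C3H and 3060 in C57B, and its part in the strain values was not tested.

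The same term was then computed in the ATG mice; whether it differed from that in saline mice was not tested. Slc2a1 had log2 fold changes of 1.60 (SE 0.14) in C3H and 1.67 (SE 0.14) in C57B, and a strain by hyperoxia term of -0.07 (95% interval -0.48 to 0.34, adjusted p = 0.857). This term was added after seeing the data, called 13.3% of all genes, and called 2 of the 10. Hk1 went from 20.0 to 26.0 FPKM (median 23.2) to 25.0 to 37.2 (median 27.6) in C3H, and from 14.2 to 20.2 (median 17.5) to 32.4 to 39.9 (median 34.5) in C57B. Its increase was smaller in C3H, 0.32 against 1.00, with a term of -0.69 (SE 0.13, adjusted p = 0.00168). Ldha had the opposite order. It went from 171 to 201 FPKM (median 192) to 281 to 355 (median 314) in C3H and from 195 to 260 (median 220) to 219 to 346 (median 256) in C57B, that is 0.72 against 0.23, with a term of 0.49 (SE 0.12, adjusted p = 0.0113). With all 48 mice in 1 fit Hk1 still passed (adjusted p = 0.00308) and Ldha did not (adjusted p = 0.0667). Pfkfb3 had 0.79 and 0.67, Hk2 0.71 and 0.81, Pkm 0.65 and 0.90, Aldoa 0.11 and 0.34, and Pfkl -0.52 and -0.50.

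**Figure D5:**
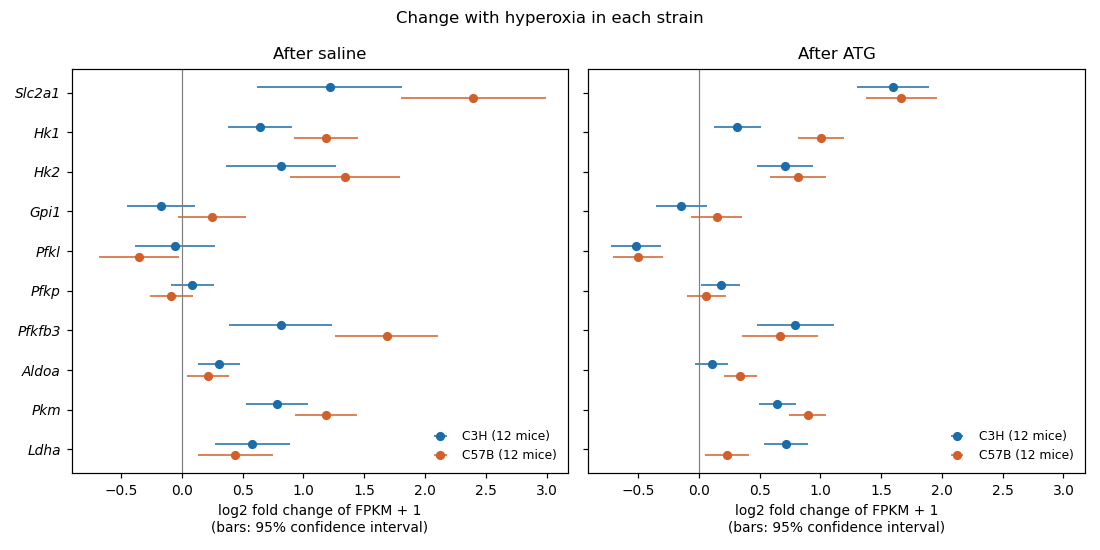
Log2 fold change of FPKM + 1, hyperoxia minus room air, in 12 C3H mice (blue) and 12 C57B mice (orange) after saline and after ATG, with 95% confidence intervals from the limma fits. After saline Slc2a1, Pfkfb3, Hk1 and Pkm lie further right in C57B, with no strain by hyperoxia term past the threshold, and after ATG the strains are furthest apart for Hk1 (0.32 and 1.00) and Ldha (0.72 and 0.23).

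Among 6 neutrophil markers the strain by hyperoxia term after ATG was positive for 5 (Csf3r, Cxcr2, Retnlg, S100a8 and S100a9), beside 13.3% of all genes called. Their sum in ATG mice went from a median of 144 FPKM in room air to 754 in hyperoxia in C3H and from 925 to 386 in C57B. After saline the order was the other way, with medians from 188 to 206 FPKM in C3H and from 461 to 3060 in C57B. In the wider lists the terms of Ldhb (0.95), Slc16a3 (1.10, the lactate exporter MCT4), Slc5a1 (1.57), Slc2a6 (1.27), Slc2a3 (0.69), Pfkfb4 (0.87), Mpc1 (0.63), Rpe (0.59) and Epas1 (0.70) were positive, and those of Taldo1 (-0.64), Pdp1 (-0.48) and Pck2 (-0.33) negative. Alveolar macrophage sums in ATG mice went from a median of 381 to 135 FPKM in C3H and from 697 to 1171 in C57B. The part of neutrophils or macrophages in the Hk1 and Ldha terms was not tested.

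Few of these genes passed the threshold between the sexes. In saline mice in room air 0.669% of all genes passed between males and females in limma and 0 of the 10. At an unadjusted p under 0.05 was 1 of the 10, Pfkfb3, beside 3617 of all 15546 genes tested. Pfkfb3 had a log2 fold change, males minus females, of -0.77 (SE 0.17, adjusted p = 0.0671), and without C3HM SAL RA 2 it was -0.88 with an adjusted p of 0.00658. Without that mouse the count over all genes also went from 104 to 3640. In ATG mice in room air, a comparison added after seeing the data, 1.63% of all genes passed and 2 of the 10. Pfkfb3 was at 9.26, 11.5 and 10.8 FPKM in the 3 C3HM mice and 10.1, 9.14 and 10.5 in the 3 C57BM mice, against 30.5, 20.0 and 22.9 in the C3HF and 20.7, 28.9 and 30.0 in the C57BF mice. All 6 males were below all 6 females, with a log2 fold change of -1.22 (SE 0.12, adjusted p = 0.000381). Hk2 was also lower in males (-0.62, SE 0.12, adjusted p = 0.028), a call lost when any 1 of 7 of the 12 mice was left out (adjusted p 0.0557 to 0.0721), and of the wider lists Arrdc4 (0.83), Pgd (0.44) and Taldo1 (0.38) were higher. The sex by hyperoxia term called 0.0368% of all genes and 0 of the 10 in limma. At an unadjusted p under 0.05 were 0 of the 10, beside 2964 of all 16321 genes tested. For Slc2a1 the term was -0.42 (95% interval -1.26 to 0.43) and for Pfkfb3 -0.06 (-0.66 to 0.54).

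ATG itself was compared with saline within each air. In room air 0.0185% of all genes, 3 of 16228, passed in limma, with 1077 at an unadjusted p under 0.05, and 0 of the 10, with Pfkp and Pfkfb3 at an unadjusted p under 0.05. Pfkfb3 had a median of 10.7 FPKM after saline and 15.7 after ATG (log2 fold change 0.43, SE 0.11, adjusted p = 0.411), and Pfkp 19.9 and 16.5 (-0.21, SE 0.06, adjusted p = 0.437). For Slc2a1 the value was 0.00, with a 95% interval from -0.13 to 0.14. In hyperoxia 5.47% of all genes passed in limma and 0 of the 10. Hk1 and Hk2 were at an unadjusted p under 0.05 (-0.16 and -0.28, adjusted p 0.17 and 0.14), as were 3472 of all 15860 genes tested. Slc2a1 had -0.17 there, with a 95% interval from -0.62 to 0.28. Of the wider lists Slc5a1 (0.56), Rpe (0.24), Taldo1 (0.18) and Dld (0.16) were higher and Epas1 (-0.31) and Mlxip (-0.21) lower.

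The test of whether ATG altered the hyperoxia change, over all 48 mice, called 2.77% of all genes and 0 of the 10 in limma. At an unadjusted p under 0.05 were 4 of the 10 (Hk1, Pfkl, Pfkfb3 and Pkm), beside 3190 of all 16994 genes tested. Pfkfb3 came nearest with -0.52 (SE 0.18, adjusted p = 0.111), and Pfkl had -0.30 (SE 0.13, adjusted p = 0.206), so that Pfkl is not shown to respond differently after ATG and after saline. Aldoc (-0.77) and Epas1 (-0.55) were the genes of the wider lists that passed. The saline room air mice enter the strain, sex, ATG and hyperoxia comparisons alike, so these values are not independent of each other, whereas the hyperoxia changes after saline and after ATG come from different mice.

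The genes whose pattern over the 48 mice was most like that of a member, by Pearson's r of log2(FPKM + 1) and given as a description, were for Slc2a1 the translation initiation factor gene Eif4a1 (0.96) and Tgif1 (0.96). For Pkm they were Bzw1 (0.96) and Ccdc86 (0.96), for Hk1 the collagen gene Col18a1 (0.95) and Emp1 (0.94), and for Ldha Rnf149 (0.92) and Fam49b (0.91). For Pfkfb3 they were Spsb1 (0.91) and Tspan4 (0.90) and for Hk2 Gfpt2, an enzyme gene of hexosamine synthesis, (0.87) and Myc (0.86). Aldoa was closest to Aldoart1 (0.80), with which it shares sequence, and to Got1 (0.80). The genes without a hyperoxia increase had looser neighbours: Fam3c (0.79) and Slfn5 (0.77) for Pfkl, Snrpa (0.75) and B3gat2 (0.75) for Gpi1, and Bcl6b (0.61) and Gm16096 (0.60) for Pfkp. All 48 points share strain, air and injection, which such correlations take up.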

How the data were processed

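Whole lung RNA of 48 mice was sequenced, and the authors deposited FPKM per gene in 1 matrix. The submitters' processing notes name GSNAP, SAMtools, Cufflinks and mm10. Library kit and instrument are described differently by the sample labels and by the published methods, which describe 12 unexposed mice and no injection. Row Akap5 carried a fill value in 7 lungs and was dropped, leaving 47560 of 47561 rows.

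Values were analysed as log2(FPKM + 1) in R 4.3.3 with limma 3.58.1 (empirical Bayes with trend), using genes at 1 FPKM or more in at least 3 mice of a fit and Benjamini-Hochberg adjustment over all of them, with a threshold of 0.05. The mice of a contrast entered its fit, with all 48 mice for ATG by air; the changes within a strain come from the 24-mouse fits of both strains, which share 1 estimate of the spread. Hyperoxia contrasts averaged over strain and sex groups. In each fit planned from the start, 200 genes were changed in simulated data. At a log2 change of 1 the share recovered was 92% for hyperoxia after saline and 95.5% for hyperoxia after ATG. It was 56.5% for strain by hyperoxia and 48% for sex by hyperoxia. False calls made up 5.15%, 2.55%, 5.04% and 8.57% of calls, in the same order. The 2 hyperoxia fits themselves called 60.1% and 61.8% of all genes, so these shares describe the simulated setting only. Whether the number of lungs or sequencing depth limits precision more was not tested, since read totals were not used. Nothing states how litters or cages were shared, so p-values measure the spread between these mice.

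The 10 genes, the pathway lists and the marker lists were chosen with earlier results of these data known. The 10 genes were named in every comparison, and up to 6 genes of a list that passed with the largest changes; further list genes, such as Tpi1, Ldhb, Mpc2 and Pdp1, were named after their values were seen. Alternatives were a pseudocount of 0.1, no filter, quantile normalization, median ratio scaling, no trend, all 48 mice in 1 fit, each mouse left out, and C3HM SAL RA 1 and 3 left out. Leaving out C57BM SAL HYP 19 and C3HF SAL HYP 33, strain by hyperoxia after ATG and sex after ATG were added after seeing the data. Gene positions are from GENCODE M21. Python 3.11.15 was used for descriptions.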

Additional observations from a re-analysis of the deposited data

Results flagged for a closer look

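In groups of 6 mice of the same strain, injection and air, single mice stood apart from the other 5 for 11 of the 80 sets of values examined (10 genes in 8 groups), by the gap to the nearest mouse divided by the range of the group, above Dixon's 95% critical value. Chance flags about 1 in 20 such groups. C3HF SAL HYP 33 was the highest C3H hyperoxia mouse after saline for Slc2a1 (70.3 FPKM beside 22.0 in the next, ratio 0.890), Hk2 (10.8 beside 7.02, ratio 0.685) and Ldha (407 beside 265, ratio 0.781), and it also had the highest neutrophil sum of all lungs, 6271 FPKM. C3HF ATG HYP 34 was highest in its group for Pfkfb3 (45.7 beside 27.7 FPKM, ratio 0.825) and Hk1 (37.2 beside 29.1, ratio 0.665), with a neutrophil sum of 2887 FPKM, the highest after ATG in hyperoxia. C57BF ATG HYP 48 was highest for Slc2a1 (68.1 beside 42.4 FPKM, ratio 0.695). C3HM SAL RA 1 was lowest for Pfkl (8.04 beside 14.5 FPKM, ratio 0.653) and Pkm (96.8 beside 144, ratio 0.682), and in this lung Scgb1a1 took 30.2% of all FPKM. For Pfkl, C57BM SAL RA 13 (20.7 beside 15.0 FPKM, ratio 0.768), C57BF ATG RA 41 (20.9 beside 16.5, ratio 0.765) and C57BF ATG HYP 46 (15.9 beside 11.7, ratio 0.692) were the highest of their groups. The part of neutrophil transcripts or of Scgb1a1 in these values was not tested.

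The hyperoxia change after ATG differed between strains by the limma interaction term for 2 genes, Hk1 (-0.69, C3H minus C57B) and Ldha (0.49), beside 13.3% of all genes tested. With all 48 mice in 1 fit only Hk1 passed.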

How the results depend on the processing

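Of 2760 recomputed planned values of the 10 genes, 2706 kept their side of the threshold, 12 lost the call and 40 gained one. A further 2 reversed, both for hyperoxia after ATG under quantile normalization: Gpi1 at -0.20 (adjusted p = 0.0137 in limma) and Aldoa at -0.00847. The cause was not tested. Among the 2706, values short of the threshold could turn direction, as Gpi1 did for hyperoxia after saline under quantile normalization and median ratio scaling. Leaving out 1 mouse at a time gave 7 to 8 of the 10 genes called for hyperoxia after saline, 8 to 9 after ATG, 0 to 2 for strain, 0 to 1 for sex, 0 to 3 for strain by hyperoxia, 2 to 3 for strain by hyperoxia after ATG, 1 to 2 for sex after ATG, and 0 to 0 for ATG in room air, ATG in hyperoxia, sex by hyperoxia and ATG by air. For strain the count of 1 became 0 with median ratio scaling and without trend. For sex the count of 0 became 1 with all 48 mice. For strain by hyperoxia 0 became 3 with quantile normalization, 4 with median ratio scaling, 4 with all 48 mice, and 3 without C57BM SAL HYP 19 and C3HF SAL HYP 33. After ATG this term called 4 with median ratio scaling and 1, Hk1, with all 48 mice, and sex after ATG called 1 without the filter and 1 with all 48 mice.

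Over all genes, leaving out 1 mouse gave 9479 to 10098 calls for hyperoxia after saline, 9748 to 10024 after ATG, 1306 to 4021 for strain, 20 to 3640 for sex, 3 to 32 for ATG in room air, 443 to 1096 for ATG in hyperoxia, 1400 to 3242 for strain by hyperoxia, 2 to 1270 for sex by hyperoxia, 243 to 1093 for ATG by air, 1648 to 2338 for strain by hyperoxia after ATG and 115 to 326 for sex after ATG. C3HM SAL RA 2 was the mouse left out at 4021, 3640, 32, 3242, 1270 and 1093. With all 48 mice the calls were 2982 for strain, 1915 for sex, 2994 for strain by hyperoxia and 306 for sex by hyperoxia. Without the filter they were 40 for sex, 5 for ATG in room air and 313 for ATG by air. Without C3HM SAL RA 1 and 3 they were 30 for sex and 5 for ATG in room air, sex by hyperoxia had 2 with median ratio scaling, and it had 627 without C57BM SAL HYP 19 and C3HF SAL HYP 33.

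Scaling moved the balance of higher to lower calls, given as deposited, quantile normalized and median ratio scaled: 609 to 1223, 974 to 930 and 929 to 1008 for strain; 37 to 67, 53 to 43 and 37 to 38 for sex; 617 to 251, 350 to 418 and 262 to 377 for ATG in hyperoxia; 1422 to 458, 862 to 893 and 926 to 1066 for strain by hyperoxia; 265 to 205, 182 to 342 and 177 to 363 for ATG by air; 1340 to 816, 1118 to 1249 and 1128 to 1249 for strain by hyperoxia after ATG; 5 to 1, 1 to 3 and 1 to 1 for sex by hyperoxia; and, by less, 5192 to 4611, 4963 to 4786 and 4752 to 5190 for hyperoxia after saline and 5802 to 4216, 5005 to 4826 and 4940 to 5080 for hyperoxia after ATG. The median of all genes went from -0.10 to 0.02 for strain, from -0.12 to -0.00 for sex, from 0.15 to -0.01 for strain by hyperoxia and from 0.14 to 0.01 for sex by hyperoxia under quantile normalization. No paired analysis was possible because each mouse carries its own number and no 2 groups share one.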
